A study of Mus musculus with 60 samples.

Results

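The genes that bring long-chain fatty acids into muscle and carry them into the mitochondrion were followed in Mstn-null and wild-type mice: Lpl, Cd36, Slc27a1, Fabp3, Acsl1, Cpt1b, Slc25a20, Cpt2 and Ucp3. All probe sets of the chip pair MOE430A and MOE430B were taken whose platform annotation gives one of these symbols. They were 15 of the 45037 probe sets tested and covered 7 of the 9 genes, with 3 probe sets for Cd36 and 2 for each of the other six genes. Cpt1b is named only on a probe set that also carries Chkb and Gm44502, so its values are given apart and enter no count. Acsl1 is named by no probe set in the annotation used and was not analysed here.

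In pectoralis muscle at d35, 11 of the 15 probe sets were called lower in Mstn-null mice, beside 2.50% of all probe sets tested. None was called higher, and each of the 7 genes was called at its brightest probe set. The genes were chosen with earlier results of these data known, so the count is a description and not an independent test. The declines at the brightest probe sets were between 20.5% for Ucp3 and 33.7% for Slc25a20. At neither embryonic time point did any of the 15 probe sets pass the test. Of all probe sets, 0.540% passed it at 13.5 days post coitum and 0.00% at 17.5.

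Fatty acids reach muscle bound to albumin or inside triglyceride-rich lipoproteins. Lipoprotein lipase frees them at the capillary wall, membrane proteins such as CD36 and the transporter encoded by Slc27a1 help them into the cell, and a small binding protein carries them through the cytosol. After activation to acyl-CoA they are joined to carnitine at the outer mitochondrial membrane, pass the inner membrane on a carrier, and are turned back into acyl-CoA in the matrix for oxidation. Slow-twitch fibres, heart and brown fat burn fatty acids heavily and are known to express many, but not all, of these genes at high levels, and adipocytes use the first steps to store fat.

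The mice were Mstn-null C57BL/6J mice, in which the gene for myostatin, a secreted inhibitor of muscle growth, is deleted, and wild-type C57BL/6J mice. The allele and the sex of the animals are not given in the sources used here. The tissues were the entire embryo at 13.5 days post coitum (d.p.c.), the hindquarters at 17.5 d.p.c. and, 35 days after birth (d35), the pectoralis muscle. Each genotype and time point had 5 pools of RNA from 3 animals each, 15 animals in all, and each of the 30 pools was hybridized to both chips. Values are log2 intensities after RMA (robust multi-array average), so a difference of 1 is a doubling, and a probe set's level says nothing of its level beside another probe set. The call rule was a Storey q-value under 0.05 from limma, computed over all 45037 probe sets of a time point. Differences are Mstn-null minus wild-type, the opposite direction to the ratios of the study, and SE is the standard error of the fit.

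In d35 pectoralis the muscle creatine kinase gene Ckm read 14.49 ± 0.03 in Mstn-null and 14.41 ± 0.05 in wild-type pools (SD, n = 5 each), near the top of the scale, whereas all 6 heart genes and 3 of 5 liver genes lay below the median of their chip. Hindquarters at 17.5 d.p.c. held liver RNA in varying amounts: the summed intensity of 5 liver genes was between 4197 and 47682 in Mstn-null pools and between 23992 and 66904 in wild-type pools. Mstn itself is named by no probe set in the annotation used, so the genotype was not checked on the arrays. The beta-actin control, whose 3′ minus 5′ signal rises as RNA degrades, differed by 0.06 to 0.21 in Mstn-null and 0.13 to 0.58 in wild-type pools on chip A at d35. The groups did not overlap on chip B at 13.5 d.p.c., where it was 0.29 to 0.32 in Mstn-null and 0.16 to 0.23 in wild-type pools, nor did the Gapdh control on chip B at 17.5 d.p.c., at −0.080 to −0.0050 in Mstn-null and −0.0011 to 0.035 in wild-type pools. The part of RNA quality in the results was not tested. In bulk RNA, fewer cells of a type and less RNA per cell cannot be told apart.

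Over all genes tested at d35, 4.58% of probe sets were called, 2.50% in the direction of lower in Mstn-null, against the 11 of 15 among the fatty acid genes. All 15 differences were below 0, as were 44.0% of all differences at this time point. The median difference was −0.41 over the 15 probe sets and −0.46 over the 7 brightest probe sets, beside 0.01 over all probe sets tested. In 9 of the 15 every Mstn-null pool lay below every wild-type pool, a pattern seen in 2.48% of all probe sets. The 4 probe sets that missed the test belong to Cd36, Fabp3, Cpt2 and Ucp3, and each of these genes had another that passed it.

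**Figure D1:**
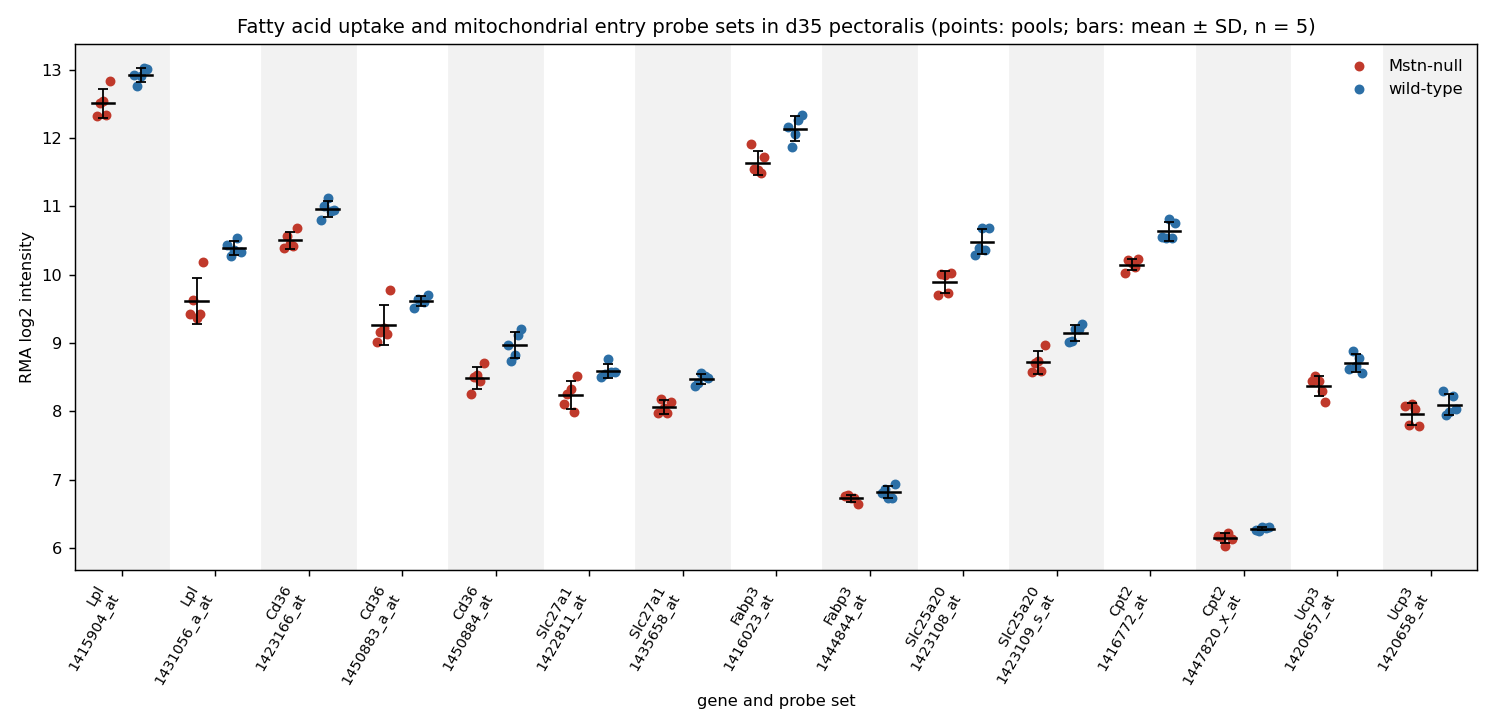
RMA log2 intensity (vertical axis) of the 15 probe sets (horizontal axis) in d35 pectoralis, with Mstn-null pools in red left of wild-type pools in blue, each point a pool, bars the mean ± SD of 5 pools. In 9 of the 15 probe sets every Mstn-null pool lies below every wild-type pool.

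Lpl encodes lipoprotein lipase, which cuts fatty acids from circulating triglycerides. Its brighter probe set (1415904_at) read 12.32, 12.51, 12.53, 12.33 and 12.84 in the 5 Mstn-null pools, against 12.92, 12.76, 12.90, 13.02 and 13.00 in the wild-type pools. The groups overlapped only through Mstn-null pool 5, the highest of its genotype. The difference was −0.41 (SE 0.09, 95% confidence interval −0.61 to −0.22, q = 0.0169), which puts Mstn-null at 0.75 times wild-type on the linear scale.

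At the second Lpl probe set (1431056_a_at) the Mstn-null pools read 9.43, 9.63, 9.37, 9.42 and 10.18, against 10.43, 10.27, 10.37, 10.53 and 10.33 in wild-type. Here the groups did not overlap, although pool 5 again stood close to wild-type. The decline was 41.7% (difference −0.78, SE 0.13, q = 0.00405), the widest among the 15 probe sets. Pools high at one Lpl probe set were high at the other (r = 0.85 over 10 pools after removal of the genotype means). The call on 1415904_at was lost without wild-type pool 3 (q = 0.0501), and that on 1431056_a_at was kept in all 17 alternative settings run for it.

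Cd36 encodes a scavenger receptor that binds long-chain fatty acids at the cell surface and helps them cross. The probe set 1423166_at read 10.39, 10.57, 10.45, 10.42 and 10.68 in Mstn-null pools, against 10.81, 11.00, 11.12, 10.94 and 10.95 in wild-type pools. All Mstn-null pools were below all wild-type pools, and the decline was 27.3% (difference −0.46, SE 0.07, q = 0.00265). A further Cd36 probe set (1450884_at) was also lower with no overlap, at 8.25 to 8.70 in Mstn-null and 8.74 to 9.21 in wild-type pools (difference −0.48, SE 0.10, q = 0.0113).

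The Cd36 probe set that missed the test (1450883_a_at) read 9.02, 9.16, 9.22, 9.14 and 9.77 in Mstn-null pools, against 9.50, 9.65, 9.61, 9.60 and 9.70 in wild-type pools. Mstn-null pool 5 was above every wild-type pool and the other 4 were below all of them, giving a difference of −0.35 (SE 0.11, q = 0.0736). Without that pool the probe set passed the test and 12 of the 15 were called.

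Slc27a1 encodes FATP1, a membrane protein of muscle and fat that takes up fatty acids and has acyl-CoA synthetase activity. Its chip A probe set (1422811_at) read 8.10, 8.26, 8.33, 7.98 and 8.51 in Mstn-null pools, against 8.50, 8.54, 8.76, 8.58 and 8.57 in wild-type pools. Only Mstn-null pool 5 reached the wild-type range, and the decline was 21.7% (difference −0.35, SE 0.09, q = 0.0315).

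On chip B, Slc27a1 (1435658_at) read 7.97, 8.18, 8.04, 7.98 and 8.14 in Mstn-null pools, against 8.37, 8.41, 8.57, 8.52 and 8.48 in wild-type. The groups did not overlap, and Mstn-null pool 5 was not the highest of its genotype. This decline of 24.7% (difference −0.41, SE 0.06, q = 0.00182) was kept in all 17 alternative settings run for it, whereas the call on 1422811_at was lost in 5 of 18, when any 1 of Mstn-null pools 1 to 4 or wild-type pool 3 was left out (highest q = 0.101).

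Fabp3 encodes the heart-type fatty acid binding protein, the main cytosolic carrier in striated muscle. The probe set 1416023_at read 11.91, 11.54, 11.53, 11.49 and 11.72 in Mstn-null pools, against 12.16, 11.87, 12.06, 12.26 and 12.33 in wild-type pools. The highest Mstn-null pool, pool 1, lay above the lowest wild-type pool, pool 2, and the other pools were apart. The decline was 29.2% (difference −0.50, SE 0.10, q = 0.00984). The chip B probe set (1444844_at) read 6.64 to 6.77 in Mstn-null and 6.73 to 6.94 in wild-type pools, with a difference of −0.09 (SE 0.05, q = 0.266), and it did not follow 1416023_at across pools (r = 0.07).

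Slc25a20 encodes the carnitine-acylcarnitine carrier of the inner mitochondrial membrane. Its values at 1423108_at were 9.69, 10.01, 10.00, 9.74 and 10.02 in Mstn-null pools, against 10.29, 10.40, 10.69, 10.36 and 10.68 in wild-type pools. No pool of one genotype entered the range of the other, and the decline was 33.7% (difference −0.59, SE 0.09, 95% confidence interval −0.80 to −0.39, q = 0.00355).

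The second Slc25a20 probe set (1423109_s_at) read 8.57, 8.71, 8.74, 8.58 and 8.98 in Mstn-null pools, against 9.02, 9.03, 9.21, 9.21 and 9.28 in wild-type pools. Again the groups did not overlap, with Mstn-null pool 5 nearest to wild-type, and the decline was 25.9% (difference −0.43, SE 0.08, q = 0.00785). Both calls held in all 17 or 18 alternative settings run for them.

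Cpt2 encodes carnitine palmitoyltransferase 2, which turns acylcarnitine back into acyl-CoA in the matrix. The probe set 1416772_at read 10.02, 10.21, 10.17, 10.11 and 10.23 in Mstn-null pools, against 10.55, 10.53, 10.82, 10.53 and 10.76 in wild-type pools. The gap between the groups was wider than the range within Mstn-null, and the decline of 28.8% (difference −0.49, SE 0.07, q = 0.00168) had the lowest q-value among the 15 probe sets. The other probe set (1447820_x_at) read 6.02 to 6.21 in Mstn-null and 6.25 to 6.31 in wild-type pools. Its groups did not overlap, yet the difference of −0.14 (SE 0.05) missed the test at q = 0.0847.

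Cpt1b, the muscle form of the enzyme that joins acyl groups to carnitine at the outer membrane, shares its probe set (1418328_at) with Chkb, its neighbour and a choline kinase, and Gm44502. That probe set read 10.47, 10.59, 10.57, 10.61 and 10.77 in Mstn-null pools, against 10.79, 10.69, 10.88, 10.90 and 11.01 in wild-type pools. Mstn-null pool 5 overlapped wild-type pool 2, and the difference was −0.25 (SE 0.07, q = 0.0442). The call was lost in 10 of 17 alternative settings (highest q = 0.156), among them the Benjamini-Hochberg adjustment, and which of the 3 genes the signal came from cannot be told apart.

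Ucp3 encodes an inner membrane protein of muscle mitochondria that is related to the uncoupling protein of brown fat and is known to follow fatty acid supply. The probe set 1420657_at read 8.45, 8.52, 8.44, 8.30 and 8.14 in Mstn-null pools, against 8.61, 8.88, 8.67, 8.78 and 8.55 in wild-type pools. The groups did not overlap, and here pool 5 was the lowest Mstn-null pool. The decline was 20.5% (difference −0.33, SE 0.08, q = 0.0279), and the call was lost in 5 of 18 settings, on leaving out Mstn-null pool 3 or 4 or wild-type pool 2, 3 or 4 (highest q = 0.0718). The second probe set (1420658_at) overlapped widely, at 7.79 to 8.11 in Mstn-null and 7.95 to 8.29 in wild-type pools (difference −0.14, SE 0.09, q = 0.281).

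Since the genes moved in one direction, their promoters were searched for 4 motifs known in genes of fatty acid use and in muscle or housekeeping genes. A promoter here is 250 bases before to 50 after a RefSeq transcript start in build GRCm38.p6. Of the 7 measured genes, 6 had 8 such windows (3 for Slc27a1), and Lpl was not among them. The motifs, read on both strands, were AGGNCA repeated after 1 free base (the direct repeat bound by PPAR with RXR), AAGGTCA (a half-site of ERR receptors, whose letters can overlap the direct repeat), CTA and TAG around 4 free bases (MEF2) and GGGCGG (SP1). The first 3 were in none of the 8 windows, beside 0.381%, 4.72% and 3.69% of all 32851 promoters. GGGCGG was in 5 windows of 4 genes, Cd36, Cpt2, Slc25a20 and Slc27a1, and in 35.7% of all promoters. A match is a run of letters and not a shown binding site, and a missing one says only that these letters are not in these windows. Of the 4 genes with a match, Slc25a20, Cpt2 and Cd36 are shown, because no Mstn-null pool overlapped wild-type at their brightest probe sets. Ucp3, whose groups did not overlap either, had no match in its window and is not shown. Capitals mark GGGCGG or its reverse complement CCGCCC.
Slc25a20, chr9:108661886-108662185, plus strand: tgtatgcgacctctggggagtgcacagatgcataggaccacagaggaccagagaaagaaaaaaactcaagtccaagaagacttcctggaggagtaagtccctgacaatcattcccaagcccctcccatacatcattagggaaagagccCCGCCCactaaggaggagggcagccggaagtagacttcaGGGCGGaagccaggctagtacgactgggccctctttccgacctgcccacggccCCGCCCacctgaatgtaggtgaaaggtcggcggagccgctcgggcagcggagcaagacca
Cpt2, chr4:107923540-107923839, minus strand: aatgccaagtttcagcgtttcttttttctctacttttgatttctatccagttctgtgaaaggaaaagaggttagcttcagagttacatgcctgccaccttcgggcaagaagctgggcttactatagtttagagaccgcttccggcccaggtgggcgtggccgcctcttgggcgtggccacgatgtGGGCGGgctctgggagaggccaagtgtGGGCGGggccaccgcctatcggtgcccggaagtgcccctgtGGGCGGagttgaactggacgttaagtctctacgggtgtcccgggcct
Cd36, chr5:17835847-17836146, minus strand: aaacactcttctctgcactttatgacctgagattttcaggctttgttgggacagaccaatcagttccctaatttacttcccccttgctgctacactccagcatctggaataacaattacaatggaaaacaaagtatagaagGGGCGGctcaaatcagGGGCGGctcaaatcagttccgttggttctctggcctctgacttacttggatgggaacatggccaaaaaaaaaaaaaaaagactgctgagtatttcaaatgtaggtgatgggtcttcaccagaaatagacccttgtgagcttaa
In this strand's direction, the matches began 102, 63 and 10 bases before the Slc25a20 start, 65 and 38 bases before and 4 bases into Cpt2, and 109 and 93 bases before the Cd36 start.

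The genes also varied among pools of one genotype. After removal of the genotype means, the 21 pairs of brightest probe sets had a median Pearson r of 0.30 over the 10 pools at d35, between −0.58 and 0.94, with 12 pairs above 0. Slc25a20 and Cpt2 moved closest together (r = 0.94), and Cd36 with Slc27a1 followed (r = 0.81). Fabp3 showed little relation to Slc25a20 (r = −0.07) or Cpt2 (r = −0.06), and Ucp3 ran below 0 with all 6 others. The pairs share pools and arrays, so these values describe the 10 pools only.

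Of 18186 other genes, those whose variation among the same 10 pools was most like the mean of the 7 were Rmi2, Etfb, Luzp2, Pmvk and Pcdh11x, with Pearson r of 0.91, 0.91, 0.90, 0.89 and 0.89 and Spearman rho of 0.87, 0.90, 0.89, 0.93 and 0.85. Etfb encodes a subunit of the flavoprotein that takes electrons from acyl-CoA dehydrogenases, and its genotype difference of −0.20 was not called (q = 0.0942). The 5 genes are the highest of many candidates over few pools, and none of the 5 was called. Luzp2 and Pcdh11x were dim, at percentiles 7.75 and 19.2 of their chip, and the genotype difference of Rmi2 was −0.0077.

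**Figure D2:**
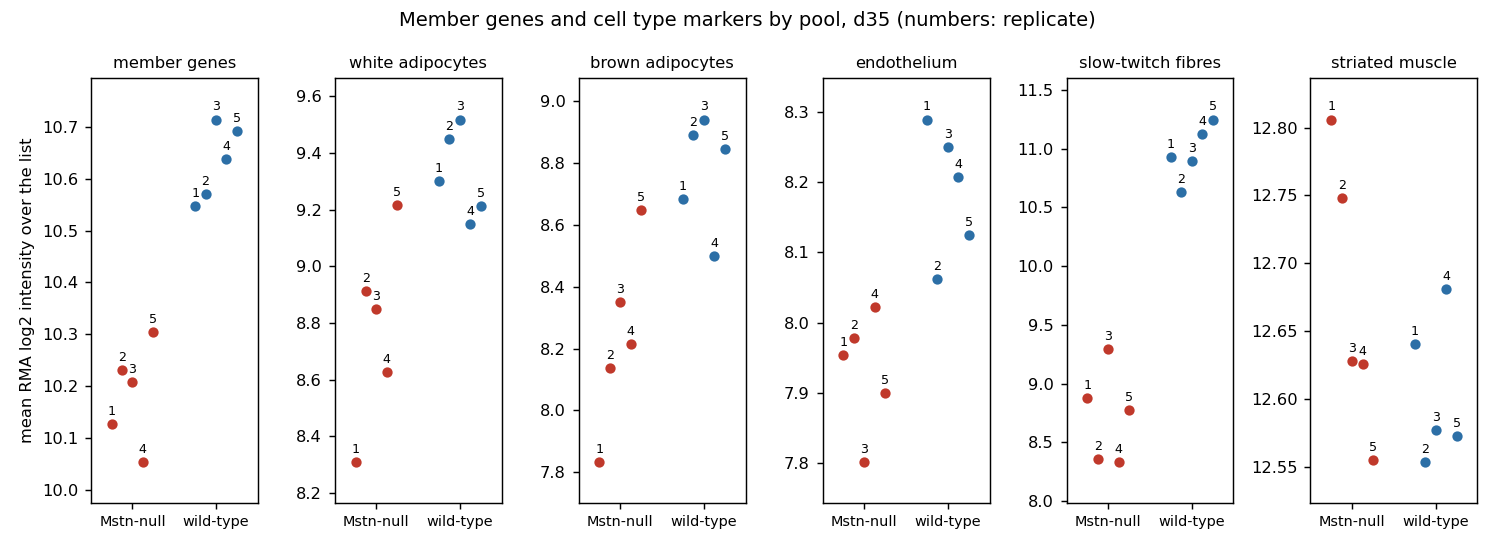
Mean RMA log2 intensity (vertical axis, own scale in each panel) over the 7 measured genes and over 5 marker lists in each d35 pool, Mstn-null in red on the left and wild-type in blue on the right, numbered by replicate. The fatty acid genes, the slow-twitch markers and the endothelial markers do not overlap between the genotypes, and Mstn-null pool 5 stands inside the wild-type range for white and brown adipocyte markers.

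Several cell type markers moved with the genotype at d35, and their part in the result was not tested. Slow-twitch fibre genes, from a list with Myh7, Tnnt1 and Tnnc1, were lower in 7 of 7 genes with a median difference of −2.30. Their summed intensity was between 2558 and 4657 in Mstn-null pools and between 11626 and 17928 in wild-type pools, with no overlap. Myh7, the slow myosin heavy chain, averaged 8.39 ± 0.60 in Mstn-null and 11.00 ± 0.21 in wild-type pools (SD, n = 5 each; difference −2.61, limma q = 5.43e-05).

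Fast-twitch genes, measured at 9 of 9, were higher in 3 (Myh4, Actn3 and Mybpc2) and lower in 1 (Myh1), with a median of 0.12, and summed to between 156198 and 159649 in Mstn-null and between 142045 and 152749 in wild-type pools, again with no overlap. None of 6 genes of striated muscle in general was called at its brightest probe set (of their other probe sets, Ckm had 1 higher and Ttn had 1 higher and 1 lower), with summed intensity between 69886 and 74296 in Mstn-null and between 68247 and 72253 in wild-type pools.

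White adipocyte genes were lower in 4 of the 7 measured, Cidec, Lipe, Pparg and Fabp4, all 7 differences were below 0, and their median was −0.55. The summed intensity was between 5796 and 10960 in Mstn-null pools and between 10330 and 13077 in wild-type pools. Adipoq, the adipocyte hormone adiponectin, read 11.03 ± 0.57 in Mstn-null and 11.70 ± 0.20 in wild-type pools (SD, n = 5 each; difference −0.67, q = 0.0724), so adipocyte RNA was present in both genotypes, while leptin (Lep) was dim, at 5.64 in Mstn-null and 5.68 in wild-type pools.

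Brown adipocyte genes were lower in 2 of 5 (Elovl3 and Cidea), with a median of −0.52 and summed intensity between 2124 and 6114 in Mstn-null and between 4702 and 7093 in wild-type pools. Endothelial genes were called lower in 3 of 6 (Tie1, Tek and Kdr), with all 6 differences below 0 and a median of −0.24. The endothelial sums were between 1427 and 1633 in Mstn-null and between 1750 and 1993 in wild-type pools, which did not overlap. Macrophage genes had 0 of 6 called, all 6 differences below 0 and a median of −0.16. The macrophage sums were between 1433 and 1984 in Mstn-null and between 1798 and 3054 in wild-type pools. Of all probe sets, 44.0% had a difference below 0. No marker intensity was 0, since the scale has no true zero.

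Mstn-null pool 5 had the highest white adipocyte level of its genotype and was the highest Mstn-null pool at 9 of the 15 fatty acid probe sets. Its mean white adipocyte level, 9.22, was above those of wild-type pools 4 and 5 (9.15 and 9.21). In the same pool the mean of the 7 fatty acid genes was 10.30, against 10.64 and 10.69 in those wild-type pools. This mean lay below all 5 wild-type pools (10.55 to 10.71). By gene, Mstn-null pool 5 entered the wild-type range at the brightest probe sets of Lpl (12.84, wild-type from 12.76) and Slc27a1 (8.51, wild-type from 8.50). It lay below all wild-type pools at those of Cd36, Fabp3, Slc25a20, Cpt2 and Ucp3. At Cd36 1450883_a_at it was above every wild-type pool. The mean slow-twitch level of Mstn-null pool 5, 8.78, was also below all 5 wild-type pools (10.63 to 11.25). The comparison rests on that pool alone, and the part of adipocytes or slow-twitch fibres in it was not tested.

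Other genes of the same route were also measured at d35. Of 26 listed, 25 were measured, and 4 were called lower, 1 was called higher and 20 were not called, with a median of −0.21. Of all probe sets, 2.50% were called lower and 4.58% in either direction. With only the brightest probe set of each gene tested, 1345 of all 18193 were called. Of the 25 differences 19 were below 0, beside 44.0% of all probe sets. Among partners of lipoprotein lipase and other lipolytic genes, Lipe, the hormone-sensitive lipase of fat cells, averaged 9.06 ± 0.39 in Mstn-null and 9.73 ± 0.32 in wild-type pools (SD, n = 5 each), a difference of −0.67 (SE 0.18, q = 0.0428). The other four were not called: Gpihbp1, which holds lipoprotein lipase on the capillary wall, differed by −0.21 (q = 0.0862), Vldlr by −0.24 (q = 0.103), Angptl4, an inhibitor of the lipase, by −0.37 (q = 0.163) and Lmf1, which helps it fold, by −0.04 (q = 0.498).

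Of 9 other transporters and binding proteins, Fabp4, the adipocyte binding protein, was lower, at 12.19 ± 0.25 in Mstn-null and 12.58 ± 0.08 in wild-type pools (difference −0.40, SE 0.10, q = 0.0301). Lipe and Fabp4 are also in the white adipocyte list, so they count in both. Dbi, the acyl-CoA binding protein, differed by −0.31 at its brightest probe set (q = 0.0547), and 2 of its other probe sets were called lower, both by −0.42 (q = 0.0257 and 0.0333).

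The acyl-CoA synthetases split in direction. Acsl5 was at 8.30 ± 0.17 in Mstn-null and 9.06 ± 0.42 in wild-type pools (difference −0.76, SE 0.16, q = 0.0144). Acsl3 was higher, at 7.60 ± 0.11 in Mstn-null and 7.27 ± 0.11 in wild-type pools with no overlap (difference 0.33, SE 0.07, q = 0.0126). Acsl4 differed by 0.32 at its brightest probe set (q = 0.0586) and by 0.35 at another that was called (q = 0.042).

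Among 7 genes of carnitine and malonyl-CoA, Slc22a5, which encodes the carnitine transporter OCTN2 of the plasma membrane, was lower with no overlap, at 8.44 ± 0.08 in Mstn-null and 8.72 ± 0.05 in wild-type pools (difference −0.29, SE 0.05, q = 0.00616). Acaca, the cytosolic acetyl-CoA carboxylase, had a large and variable difference of −0.86 (SE 0.28, q = 0.083). Cpt1a, the liver form of the outer membrane enzyme, differed by −0.22 (q = 0.13).

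**Figure D3:**
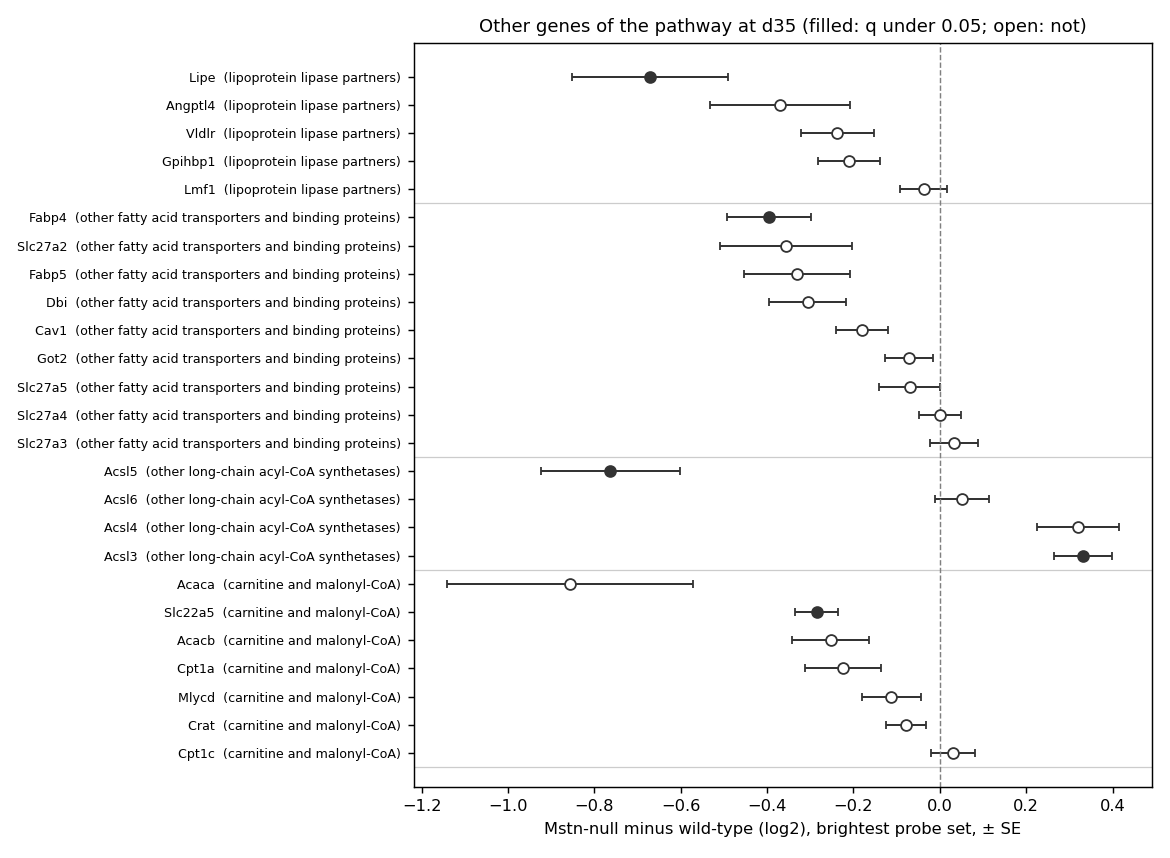
Genotype difference at d35 (horizontal axis, Mstn-null minus wild-type, log2, ± SE of the limma fit from 5 pools each) for the brightest probe set of 25 other genes of the route, grouped by list. Filled points passed q under 0.05: Lipe, Fabp4, Acsl5 and Slc22a5 lie left of 0 and Acsl3 lies right of it.

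In the 13.5 d.p.c. embryos, no probe set of the 7 genes was called, where 0.540% of all probe sets were. Of the 15 differences 4 were below 0, beside 50.3% of all, the median was 0.05, and the lowest q-value was 0.265. That was Lpl (1415904_at), at 10.08, 9.88, 9.94, 9.90 and 9.95 in Mstn-null pools, against 9.80, 9.85, 9.95, 9.75 and 9.80 in wild-type pools. These ranges overlapped, and the difference of 0.12 (SE 0.05, unadjusted p = 0.0221 in limma) was the only one of the 15 with an unadjusted p under 0.05, which 11.3% of all probe sets had.

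Fabp3 (1416023_at) at 13.5 d.p.c. read 8.39, 8.18, 8.36, 8.24 and 8.28 in Mstn-null pools, against 8.27, 9.05, 8.25, 8.28 and 8.26 in wild-type pools. Wild-type pool 2 stood above every other pool of either genotype, and the difference was −0.13 with it and 0.02 without it. Neither was called.

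In hindquarters at 17.5 d.p.c., no probe set of the 7 genes was called and none of all 45037 (0.00%). The differences were between −0.19 and 0.21, with 11 of 15 below 0 (50.5% of all) and a median of −0.03. The median SE over the 15 was 0.10 in hindquarters, beside 0.05 in embryos and 0.09 at d35. An unadjusted p under 0.05 was reached by 2 of the 15 and by 2.43% of all probe sets, and both were Cpt2.

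Cpt2 (1416772_at) read 9.64, 9.67, 9.60, 9.51 and 9.35 in Mstn-null hindquarters, against 9.94, 9.71, 9.71, 9.79 and 9.56 in wild-type. The ranges overlapped at Mstn-null pools 1 to 3, and the difference was −0.19 (SE 0.08, unadjusted p = 0.0437 and q = 1.0 in limma). Its other probe set (1447820_x_at) read 6.18 to 6.37 in Mstn-null and 6.38 to 6.55 in wild-type pools without overlap, a pattern of 0.331% of all probe sets, with a difference of −0.16 (SE 0.06, unadjusted p = 0.0188 in limma). This probe set was dim in hindquarters, at percentile 19.9 of its chip, and at d35 it did not follow 1416772_at across pools (r = 0.03). Mean liver gene levels in pool order were 13.06, 12.75, 12.85, 12.19 and 9.24 in Mstn-null and 13.65, 13.42, 13.00, 13.47 and 11.91 in wild-type. The 5 liver genes had a median difference of −0.995, none called. The part of liver RNA in the Cpt2 values was not tested. Wild-type pool 3 was the highest wild-type pool at 10 of the 15 probe sets, and its white adipocyte level was also the highest of its genotype, 0.69 above the group mean. So were its mean slow-twitch (11.67), fast-twitch (11.35), striated muscle (12.52) and endothelial (8.56) levels, but not its liver, macrophage or brown adipocyte levels. Their part was not tested.

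**Figure D4:**
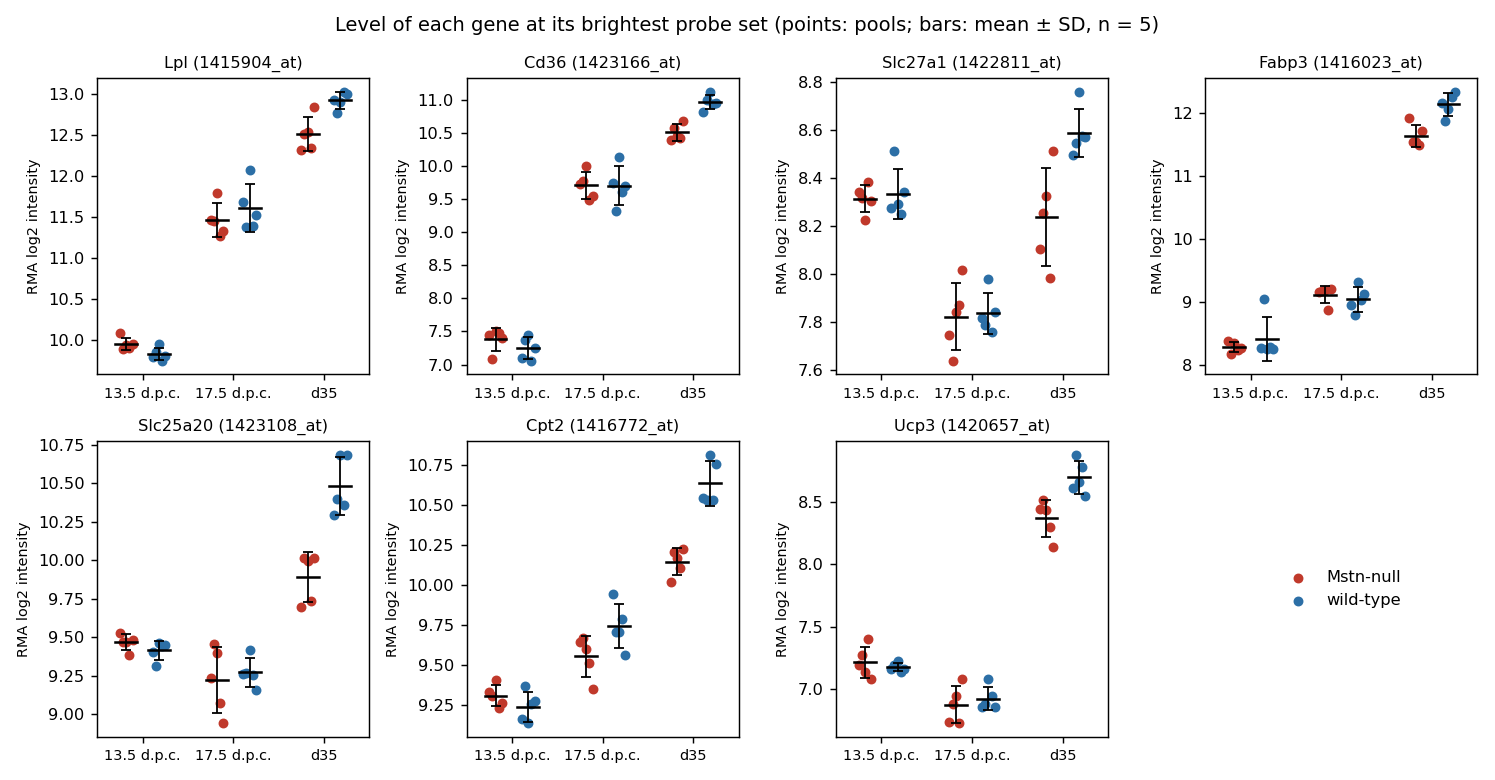
RMA log2 intensity (vertical axis) of the brightest probe set of each of the 7 genes at the 3 time points (horizontal axis), Mstn-null in red left of wild-type in blue, each point a pool, bars the mean ± SD of 5 pools. The group means part at d35 in all 7 panels.

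Levels were measured in a different tissue at each time point, and the arrays look normalized by time point, so no level was tested across them. In order of age, Lpl averaged 9.95 ± 0.08, 11.46 ± 0.21 and 12.51 ± 0.21 in Mstn-null pools (SD, n = 5 each), against 9.83 ± 0.08, 11.61 ± 0.29 and 12.92 ± 0.10 in wild-type pools. Fabp3 averaged 8.29 ± 0.09, 9.12 ± 0.14 and 11.64 ± 0.18 in Mstn-null pools and 8.42 ± 0.35, 9.05 ± 0.20 and 12.13 ± 0.18 in wild-type pools. Cd36 averaged 7.38 ± 0.17, 9.70 ± 0.20 and 10.50 ± 0.12 in Mstn-null pools, against 7.25 ± 0.17, 9.70 ± 0.29 and 10.96 ± 0.11 in wild-type pools. In both genotypes, these 3 genes read higher at each later time point.

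Slc25a20 averaged 9.47 ± 0.05, 9.22 ± 0.22 and 9.89 ± 0.16 in Mstn-null pools, against 9.42 ± 0.06, 9.27 ± 0.09 and 10.48 ± 0.19 in wild-type pools. Cpt2 averaged 9.31 ± 0.07, 9.56 ± 0.13 and 10.15 ± 0.08 in Mstn-null pools, against 9.24 ± 0.09, 9.74 ± 0.14 and 10.64 ± 0.14 in wild-type pools. Slc27a1 averaged 8.31 ± 0.06, 7.82 ± 0.14 and 8.24 ± 0.20 in Mstn-null pools, against 8.33 ± 0.11, 7.84 ± 0.09 and 8.59 ± 0.10 in wild-type pools. Ucp3 averaged 7.21 ± 0.12, 6.87 ± 0.15 and 8.37 ± 0.15 in Mstn-null pools, against 7.17 ± 0.04, 6.92 ± 0.10 and 8.70 ± 0.13 in wild-type pools. At these brightest probe sets, Slc25a20, Slc27a1 and Ucp3 read lowest in hindquarters in both genotypes. The second Slc27a1 probe set did too. The second Slc25a20 probe set did not, rising from 7.61 in embryos to 7.78 in hindquarters in Mstn-null and from 7.62 to 7.81 in wild-type. Nor did the second Ucp3 probe set in wild-type, at 6.80 and 6.82. Slc25a20 1423108_at stood at percentile 77.8 of its chip in embryos and 78.0 in hindquarters, so its place on the chip did not fall.

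Whether the genotype difference itself changed with age was tested by interaction terms in one limma fit of all 30 pools. Between 17.5 d.p.c. and d35 it became more negative in 2 of the 15 probe sets, where 0.715% of all probe sets were called (0.329% in that direction). They were Slc27a1 (1435658_at, change −0.46, SE 0.08, q = 0.00111) and Slc25a20 (1423108_at, −0.54, SE 0.12, q = 0.0259). The other 13 were not shown to differ, although 13 of the 15 changes were below 0.

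Between 13.5 d.p.c. and d35 the change was called in 6 of the 15 (1.17% of all probe sets, 0.577% in that direction). Besides the same Slc27a1 and Slc25a20 probe sets (−0.48, q = 0.000764, and −0.64, q = 0.00498), these were Cpt2 1416772_at (−0.56, q = 0.0024), Lpl 1431056_a_at (−0.88, q = 0.0258), Slc25a20 1423109_s_at (−0.42, q = 0.0309) and Cd36 1450884_at (−0.57, q = 0.031). At 13.5 d.p.c. this Cd36 probe set read 4.44 in Mstn-null and 4.36 in wild-type pools, at percentile 1.30 of its chip. Lpl 1431056_a_at was at percentile 23.2 there. A genotype difference in embryos could be missed at such dim probe sets, so their changes cannot be told apart from low detection. Between the embryonic time points none of the 15 was called, nor any of all probe sets (0.00%), and 2 of the 15 had an unadjusted p under 0.05. Tissue and age change together across these time points, and both intervals to d35 use the same d35 pools.

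These counts depended on single pools. The 17.5 d.p.c. to d35 count was 6 without d35 Mstn-null pool 5, 5 without 17.5 d.p.c. wild-type pool 3, and 1 (Slc27a1) without 17.5 d.p.c. Mstn-null pool 2, d35 Mstn-null pool 1 or 4, or d35 wild-type pool 3 or 5. The 13.5 d.p.c. to d35 count was 3 without 13.5 d.p.c. wild-type pool 1 or d35 Mstn-null pool 1, and 9 without d35 Mstn-null pool 5. Slc27a1 1435658_at was called in both intervals with any one of the 30 pools left out.

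**Figure D5:**
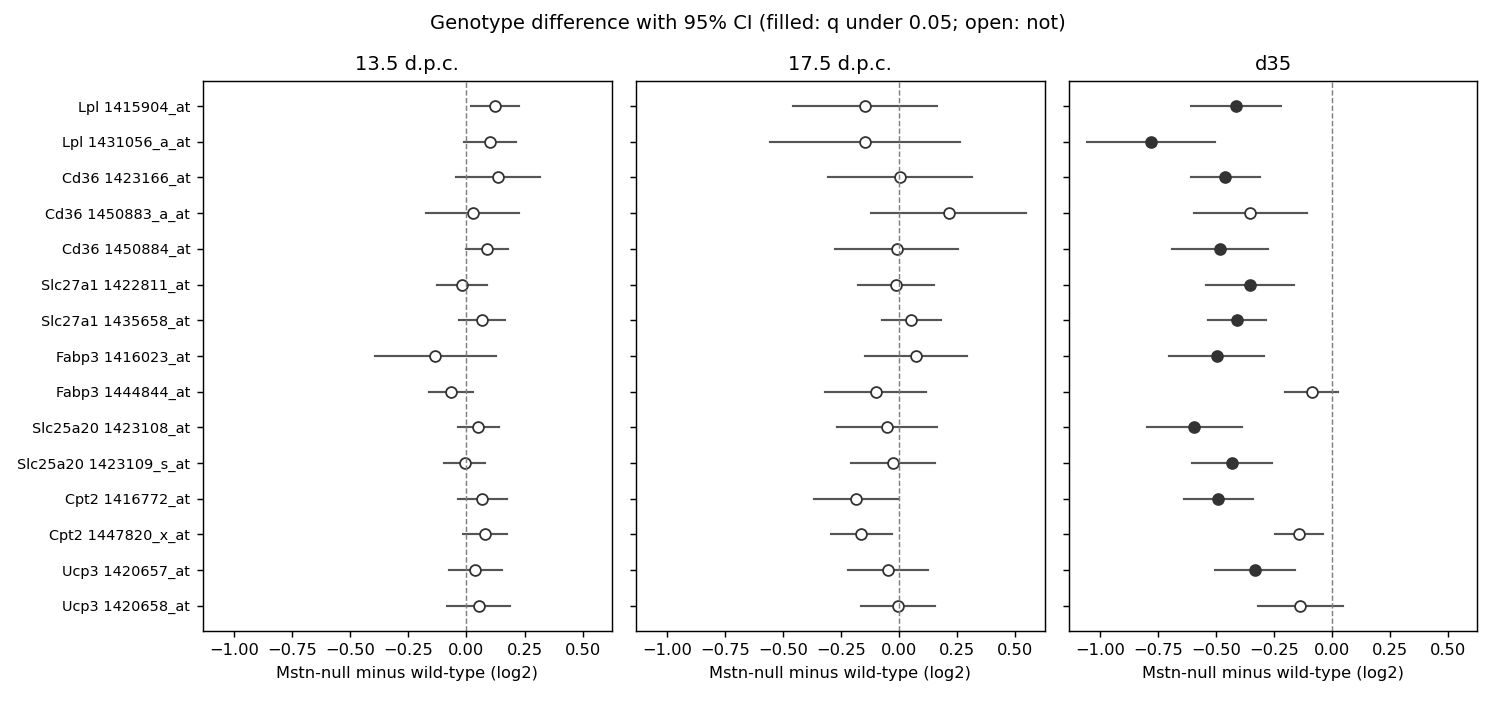
Genotype difference (horizontal axis, Mstn-null minus wild-type, log2) with its 95% confidence interval for the 15 probe sets (vertical axis), with 1 panel per time point and 5 pools of each genotype. Filled points passed q under 0.05: 11 at d35, all left of 0, and none at the earlier time points.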

How the data were processed

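Affymetrix MOE430A and MOE430B arrays were hybridized with 30 RNA pools (60 arrays). The authors used RMA (affy package for R, its version not given in the sources used here), and the deposited values are log2 intensities. Array medians match within a time point and chip and differ between time points, so genotypes were compared within a time point. Intensities are not counts, and precision is set by the 5 pools of 3 animals per group.

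After removal of 64 controls per chip, and of the chip B copy of 100 shared probe sets, 45037 remained. The platform annotation gives 1 symbol for 34945, several for 932 and none for 9160. Following the study's methods, genotypes were compared by lmFit and eBayes of limma 3.58.1 (R 4.3.3). Storey q-values (lambda 0.05 to 0.95 in steps of 0.05) were computed over all probe sets, and q under 0.05 was a call. The interaction came from 1 fit of all 30 pools. Where p-values are given, they come from these limma fits. A gene's brightest probe set has its highest mean over all pools. The pipeline was tested on simulated data. Promoter windows are from RefSeq (GRCm38.p6), and figures were drawn with Python 3.11.15 and matplotlib.

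Named genes are all member probe sets, pathway genes called at a time point (with others of their list for context, chosen after their values were seen), up to 3 genes of a marker list, and the 5 genes most like the members. The members and all gene lists were chosen with earlier results of these data known. Lists are described by counts and medians only. Cfd, Plin1, Serpina1a and Slc27a6 of the lists had no probe set of their own.

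Alternatives covered the adjustment, chips fitted apart, dim probe sets (below the 25th percentile of their chip), further quantile normalization, trended robust moderation, 1 fit of 30 pools, replicate number as a block, 1 probe set per gene, and each pool left out.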

Additional observations from a re-analysis of the deposited data

Results flagged for a closer look

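Of 96 groups of 5 pools (16 probe sets, 3 time points, both genotypes), 6 (6.25%) held a pool set apart from the other 4 by Dixon's criterion, which chance alone gives in about 1 in 20 groups. At d35, Mstn-null pool 5 read 9.77 on Cd36 1450883_a_at, with the others at 9.02 to 9.22. At 13.5 d.p.c., wild-type pool 2 read 9.05 on Fabp3 1416023_at (others 8.25 to 8.28), and Mstn-null pool 2 read 7.09 on Cd36 1423166_at (others 7.40 to 7.51) and 6.62 on Lpl 1431056_a_at (others 6.76 to 6.80). At 17.5 d.p.c., Mstn-null pool 4 read 8.87 on Fabp3 1416023_at (others 9.16 to 9.20), and wild-type pool 1 read 7.43 on Fabp3 1444844_at (others 6.88 to 6.97).

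The genotype difference changed between ages by the limma interaction test in 8 cases. Against 17.5 d.p.c., the d35 difference had changed by −0.46 for Slc27a1 1435658_at and by −0.54 for Slc25a20 1423108_at. Against 13.5 d.p.c., it had changed by −0.48 for Slc27a1 1435658_at, −0.64 for Slc25a20 1423108_at, −0.42 for Slc25a20 1423109_s_at, −0.56 for Cpt2 1416772_at, −0.57 for Cd36 1450884_at and −0.88 for Lpl 1431056_a_at. Age and tissue cannot be told apart in these comparisons. Cd36 1450884_at and Lpl 1431056_a_at were dim at 13.5 d.p.c., at percentiles 1.30 and 23.2 of their chip.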

How the results depend on the processing

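At d35, the 15 probe sets of the 7 genes and the shared Cpt1b, Chkb and Gm44502 probe set kept their sign in every alternative run for them, and of 279 values 256 kept their side of the threshold, 21 lost a call and 2 gained one. The d35 count of 11 stayed between 11 and 12 under the other settings with all pools. It was 7 of 7 with only the brightest probe set of each gene tested, where 1345 of all 18193 were called. With 1 pool left out it was between 8 and 12, lowest without wild-type pool 3. The d35 median of −0.46 was −0.42 to −0.50 with 1 pool left out, and −0.41 over all 15 probe sets. At both embryonic time points the count stayed 0 in every alternative, and small differences changed sign, none of them called.

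With the replicate number as a block, the d35 count was 12 and the 17.5 d.p.c. to d35 interaction count was 4, against 2 without it. The numbers were not taken as pairs, since only 0, 3 and 1 of 5 same-numbered pairs correlated over 0.1 at the 3 time points in order of age: same-numbered pools correlated between −0.10 and 0.08, −0.20 and 0.48, and −0.17 and 0.14 in that order, and 0, 3 and 0 of 5 Mstn-null pools correlated best with their own number. Interaction counts without 1 pool, added after seeing the data, were 1 to 6 (17.5 d.p.c. to d35), 3 to 9 (13.5 d.p.c. to d35) and 0 (between the embryonic time points). The cause was not tested. All p-values measure the spread between pools of 3 animals, and 5 pools per group limit the precision.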
